A study of Mus musculus with 4 samples.

Results

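The genes of respiratory complex I were taken as the autosomal protein-coding genes of the mouse mm10 RefSeq annotation whose symbols begin with Nduf. The rule found 47 of the 20661 autosomal protein-coding genes. By symbol, 39 were subunits (Ndufa, Ndufb, Ndufc, Ndufs and Ndufv) and 8 were assembly factors (Ndufaf1 to Ndufaf8), which help to build the complex but are not part of it. Ndufa4 and Ndufa4l2 carry subunit symbols and were counted with the subunits, although Ndufa4 is now placed in complex IV. The X-linked genes Ndufa1 and Ndufb11 and the subunits encoded by mitochondrial DNA lie outside the rule.

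The peaks came from ChIP-exo, a form of chromatin immunoprecipitation with an exonuclease step that digests each fragment up to the crosslink. All 4 libraries were made from Bruce-4, a single mouse embryonic stem cell line of C57BL/6J genotype kept in serum/2i/LIF medium without added treatment, and 10000000 cells per replicate were fixed with 1% formaldehyde for 10 min. There was 1 library for H3K4me3, the trimethyl mark on histone H3 found at active and poised promoters, 2 for CTCF, a zinc finger DNA-binding protein at which loop-extruding cohesin stops, and 1 for RAD21, the kleisin that closes cohesin. The design compared no treatments, so the question put to the lists was where each mark or protein lay at these genes.

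Each antibody had 1 peak list, of 21600 H3K4me3, 51737 CTCF and 75897 RAD21 peaks on the autosomes and X, with median lengths of 682, 104 and 140 bp. The CTCF list is named a union and is recorded under the second CTCF library. No list of the other CTCF library was analysed, so the CTCF libraries were not compared, and what the union joins is not stated in the labels. With 1 list per antibody there was no replicate error and no test was made. Read depth was unknown, so a missing peak shows only that none was called, and a peak shows where a mark or protein was found, not transcription. Intervals on shares are Wilson 95% intervals, which cover counting error only and treat genes as independent. The cell type was checked by marker genes: 9 of 10 pluripotent stem cell markers had H3K4me3 within 1 kb of a gene end, all but Esrrb, against 1 of 8 fibroblast markers, Thy1. Farther inside the gene, Esrrb had 3 H3K4me3 peaks and the fibroblast markers Col1a1 and Pdgfra had 1 each.

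Complex I is the entry point of the respiratory chain. Its matrix arm takes electrons from NADH and passes them along iron-sulphur clusters to ubiquinone, and its membrane arm pumps protons. A conserved core does the catalysis, many accessory subunits surround it, and assembly factors join the modules and then leave. The nuclear genes are scattered over the genome and are usually described as housekeeping genes with CpG-rich promoters, at which NRF1, ETS family proteins, YY1 and ERR receptors are known regulators.

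Nearly all complex I genes carried H3K4me3 in these cells. A peak lay within 1 kb of a gene end at 44 of 47 genes, 93.6% (82.8 to 97.8), whereas 57.9% of all autosomal protein-coding genes had one. Genes with such a peak are called marked below. RAD21 lay at an end of 34 genes, 72.3% (58.2 to 83.1), beside 39.4% of all genes, and CTCF at 19 genes, 40.4% (27.6 to 54.7), beside 27.2%. Marked genes in general have more of both, so the marked complex I genes were also set beside all 11973 marked genes. On that scale RAD21 lay at 34 of 44, 77.3% (63.0 to 87.2), beside 56.1%, and CTCF at 18 of 44, 40.9% (27.7 to 55.6), beside 37.9%. The RAD21 share thus stood above that of marked genes by more than its counting interval, and the CTCF share did not. The complex I genes were short, with a median length of 7798 bp against 17491 bp over all genes, and 29 of 47 had the end of another protein-coding gene within 1 kb of an end of their own, beside 25.6% of all genes. Over the whole gene with 1 kb on either side the shares were different. H3K4me3 was found at 45 complex I genes, 95.7% beside 65.8%, RAD21 at 37, 78.7% beside 66.9%, and CTCF at 26, 55.3% beside 57.4%. Of the 44 marked genes 36 then had RAD21, 81.8% beside 83.3% of all marked genes, and 25 had CTCF, 56.8% beside 72.0%. Over these longer windows the RAD21 and CTCF shares of the marked complex I genes were below those of all marked genes. RAD21 lay at an end of 20 of the 29 genes with a neighbouring gene end, 69.0% (50.8 to 82.7), and of 14 of the 18 without, 77.8% (54.8 to 91.0), and CTCF at 13 of 29 and 6 of 18.

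**Figure D1:**
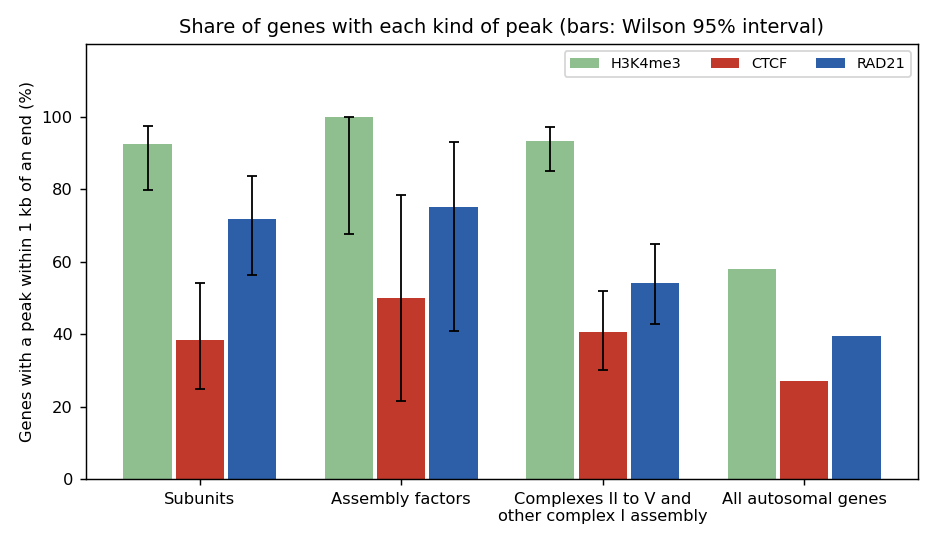
Percentage of genes with an H3K4me3, CTCF or RAD21 peak within 1 kb of a gene end, for the 39 subunit genes, the 8 assembly factors, 74 genes of the other respiratory complexes and of complex I assembly, and all 20661 autosomal protein-coding genes. Error bars are Wilson 95% intervals; all genes have no bar. The H3K4me3 bars of the 3 gene groups stand between 92.3% and 100%, above the 57.9% of all genes.

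Most complex I genes with CTCF also had RAD21, 17 of 19, while 17 of the 34 with RAD21 had CTCF. Both lay at an end of 17 genes, 36.2% beside 22.8% of all genes. All 17 were marked, so 36.2% had all 3 kinds of peak, beside 18.4% of all genes. The peaks did not always overlap or lie at the same end: Ndufa11 had H3K4me3 at its start and CTCF at its far end. These 17 genes made up 38.6% of the marked complex I genes (25.7 to 53.4), beside 31.7% of all marked genes. RAD21 without CTCF was found at a further 17, 36.2% beside 16.6% of all genes, and 38.6% of the marked beside 24.4%. CTCF without RAD21 was found at 2 genes, 4.26% beside 4.38%, and at 1 of 44 marked genes, Ndufaf3, beside 6.23%. Neither was found at 11 genes, 23.4% beside 56.2%, or 20.5% of the marked beside 37.7%. H3K4me3 stood alone at 9 genes, 19.1% beside 21.9%: Ndufa2, Ndufa7, Ndufaf5, Ndufb1, Ndufb8, Ndufb9, Ndufs1, Ndufs6 and Ndufs7.

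The core subunits, which carry out the catalysis, differed in which peaks they had. Ndufs1, which holds several of the iron-sulphur clusters, had a single H3K4me3 peak of 1797 bp and neither CTCF nor RAD21 within 1 kb of an end. Ndufs7, at the ubiquinone site, likewise had H3K4me3 alone, over 1253 bp. Ndufs3, a matrix arm subunit without a cofactor, had 1056 bp of H3K4me3 and a RAD21 peak of 86 bp. Ndufs8, which carries a pair of iron-sulphur clusters, had H3K4me3 peaks of 845 and 535 bp, a CTCF peak of 106 bp and a RAD21 peak of 488 bp, the longest RAD21 peak at any complex I gene. The flavoprotein genes Ndufv1, which binds NADH and the flavin, and Ndufv2, which holds a cluster beside it, both had all 3 kinds of peak. At Ndufv1 they measured 808, 210 and 453 bp for H3K4me3, CTCF and RAD21. At Ndufv2 the CTCF peak of 214 bp and the RAD21 peak of 216 bp coincided almost base for base, under the shorter of its H3K4me3 peaks, which measured 314 and 912 bp.

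The accessory subunits, which surround the core, were marked at all 28 genes of the matrix and membrane arm lists, with RAD21 at 22 and CTCF at 10. These shares were 78.6% and 35.7%, beside 56.1% and 37.9% of all marked genes. By arm, core and accessory together, the matrix arm had H3K4me3 at 15 of 16 genes, RAD21 at 10, 62.5% (38.6 to 81.5), and CTCF at 7. The membrane arm had H3K4me3 at 19 of 19, RAD21 at 16, 84.2% (62.4 to 94.5), and CTCF at 7. The intervals of the arms overlapped for RAD21, which lay at 39.4% of all genes and 56.1% of all marked genes. The CTCF shares were 43.8% in the matrix arm and 36.8% in the membrane arm. Beside them stood 27.2% of all genes and 37.9% of all marked genes. All 3 Ndufv genes had all 3 kinds of peak, beside 18.4% of all genes and 31.7% of all marked genes. Among the 12 Ndufb genes, most of them encoding the distal membrane arm, CTCF was found at 2, Ndufb7 and Ndufb10, and among the 14 Ndufa genes at 7. These name groups are small, and their intervals, 4.70 to 44.8% for Ndufb and 26.8 to 73.2% for Ndufa, overlapped.

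Of the 3 unmarked genes, 2 were Ndufb4b and Ndufb4c, which resemble Ndufb4 in name and have gene models of 471 and 485 bp. Neither had a peak of any kind within 1 kb of an end. The nearest H3K4me3 peaks were 33099 bp from Ndufb4b and 29220 bp from Ndufb4c. Ndufb4 itself, which encodes a membrane arm subunit, had 760 bp of H3K4me3 and a RAD21 peak of 139 bp. Without the 2 short gene models H3K4me3 lay at 44 of 45 genes, 97.8% (88.4 to 99.6), an alternative chosen after their values were seen.

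The assembly factor genes were all marked, 8 of 8 (67.6 to 100%), with RAD21 at 6 and CTCF at 4. Ndufaf1, part of the machinery that assembles the membrane arm, had 1020 bp of H3K4me3 and 270 bp of RAD21. Ndufaf2, a chaperone related to the subunit Ndufa12, had 1366 bp of H3K4me3 and 314 bp of RAD21. Ndufaf3 and Ndufaf4 act together on the ubiquinone module, and both had CTCF. Ndufaf3 had H3K4me3 peaks of 653 and 363 bp and 86 bp of CTCF without RAD21. Ndufaf4 had 633 bp of H3K4me3, 129 bp of CTCF and RAD21 peaks of 283 and 196 bp. Ndufaf5, which modifies an arginine of Ndufs7, had the longest H3K4me3 peak of the factors, 1528 bp, and neither CTCF nor RAD21 within 1 kb of an end. Ndufaf6 had 1010 bp of H3K4me3, 178 bp of CTCF and RAD21 peaks of 300 and 177 bp. Ndufaf7, a methyltransferase needed for assembly, had 1183 bp of H3K4me3 at its start and a RAD21 peak of 178 bp at its far end. Ndufaf8, the partner of Ndufaf5, had H3K4me3 peaks of 675 and 353 bp, and its CTCF peak of 186 bp and RAD21 peak of 269 bp both lay beyond its far end.

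Subunits and assembly factors were not separated by these counts. H3K4me3 lay at 36 of 39 subunits, 92.3% (79.7 to 97.3), and the difference from the factors was -7.69 percentage points (-20.3 to 25.1). CTCF lay at 15 subunits, 38.5% (24.9 to 54.1), against 4 of 8 factors (21.5 to 78.5%), a difference of -11.5 points (-43.1 to 21.0). RAD21 lay at 28 subunits, 71.8% (56.2 to 83.5), against 6 of 8 factors (40.9 to 92.9%), a difference of -3.21 points (-26.9 to 32.8). With 8 factors the intervals are wide and do not show that the groups are alike. The RAD21 comparison depended on which end was counted. At transcription starts alone, known for 33 subunits and 7 factors, RAD21 lay at 27 and 3 genes, a difference of 39.0 points (3.00 to 67.6). The factors Ndufaf7 and Ndufaf8, with RAD21 at the far end only, no longer counted there, and Ndufaf6 has no start in the table used. When only RAD21 peaks longer than the list's median were kept, the difference was -34.0 points (-56.6 to 3.48), with 16 of 39 subunits against 6 of 8 factors.

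H3K4me3 peaks at complex I genes were of ordinary length. The longest peak at an end had a median of 971 bp over the 44 marked genes, with quartiles of 754.75 and 1278.8 bp and a range of 422 to 1856 bp. Over all 11973 marked genes the median was 926 bp, with quartiles of 693 and 1213 bp. Between the quartiles of all marked genes, from shortest to longest, fell 9, 12, 10 and 13 complex I genes. The subunit median was 922 bp and that of the factors 1015 bp, a difference of -93 bp (-622.71 to 383.6). Median length was 1017.5 bp over Ndufa, 1318.5 bp over Ndufb, 817.5 bp over Ndufc, 845 bp over Ndufs and 808 bp over Ndufv genes.

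**Figure D2:**
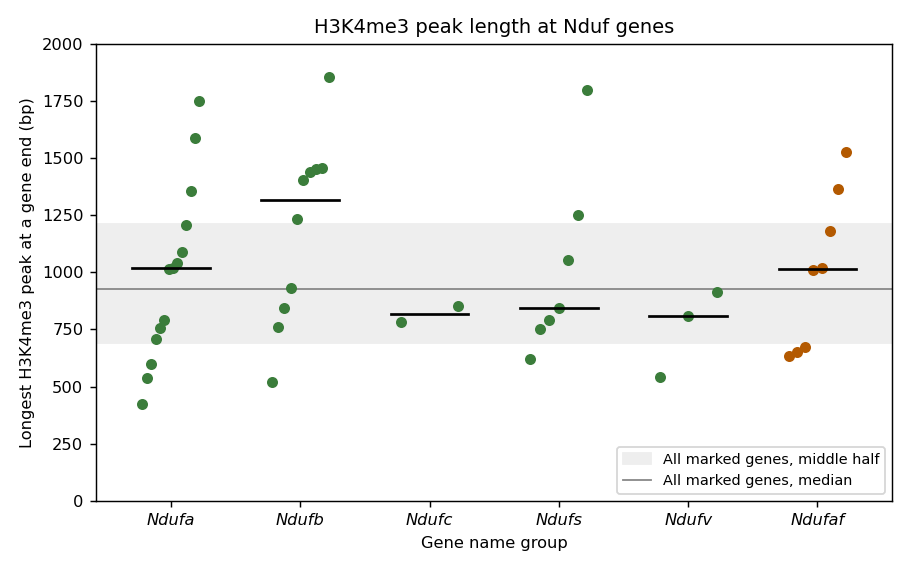
Length in bp of the longest H3K4me3 peak within 1 kb of an end of each marked complex I gene, by name group; orange points are assembly factors, green points subunits, and black bars group medians. The grey line is the median of all marked genes, 926 bp, and the band runs from their lower to their upper quartile, 693 to 1213 bp; the points spread on both sides of it in the Ndufa, Ndufb, Ndufs and Ndufaf groups.

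The longest peaks lay where a second gene begins or ends close by. Ndufb6, a distal membrane arm subunit, had 1856 bp of H3K4me3, but beyond its far end, where Smim27 and Topors are annotated, and 1163 bp at its own start. Ndufs1 followed with 1797 bp, its end 9 bp from that of Eef1b2. Ndufa7, a matrix arm subunit, had 1751 bp and an end 10 bp from that of the ribosomal protein gene Rps28. Ndufa4 had 1588 bp across its start, next to Phf14, and Ndufaf5 1528 bp across its start, next to Esf1. Among marked genes with no neighbouring end within 1 kb, the longest peak was the 1253 bp of Ndufs7, and their median was 932 bp against 994 bp for those with a neighbour. The shortest peak, 422 bp, was that of Ndufa4l2, a paralogue of Ndufa4 known for induction by hypoxia. Ndufb10 had 522 bp, Ndufa3 538 bp, Ndufv3 543 bp and Ndufa13 600 bp.

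More than 1 H3K4me3 peak was called at 7 genes, 14.9% beside 10.5% of all genes. These were Ndufa13, Ndufaf3, Ndufaf8, Ndufb6, Ndufs8, Ndufv2 and Ndufv3. All 7 were among the 29 of 47 complex I genes with a neighbouring gene end within 1 kb, 24.1% of those. A neighbouring end was found at 25.6% of all genes, but peak number was not split by neighbour over them. Ndufv3, an accessory subunit beside the flavoproteins, had 3 peaks, of 543 and 299 bp on either side of its start and 380 bp at its far end. Ndufa13 is a membrane arm subunit also studied for a role in cell death. It had 600 bp after the start used and 309 bp before it, from -1095 to -787 relative to that start. The start used, at base 69902020, lies inside the annotated gene, which runs to 69902558.

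The longest CTCF peak at an end had a median of 178 bp over the complex I genes with CTCF, against 135 bp over all genes with CTCF at an end. The longest of all, 421 bp, lay at the far end of Ndufa11, which stabilises the membrane arm, over a RAD21 peak of 97 bp. At starts, the CTCF peak measured 241 bp at Ndufa3, a small membrane subunit, 233 bp at Ndufa13, 218 bp at Ndufb7, an intermembrane space subunit, 196 bp at Ndufa6, a matrix arm subunit of the LYR family, and 179 bp at Ndufa12. It measured 163 bp at Ndufc1, 128 bp at Ndufb10 and 126 bp at Ndufab1, which encodes the mitochondrial acyl carrier protein. Ndufa4l2 had peaks of 172 and 101 bp, and Ndufv3 the shortest pair, 89 and 38 bp. A second CTCF peak was also called at Ndufa13, 100 bp long at its far end, and at Ndufb7, 64 bp long. These 4 genes with more than 1 CTCF peak are 8.51% beside 4.51% of all genes, and 9.09% of the marked beside 6.72%.

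RAD21 peaks had a median length of 191 bp over 34 genes, against 172 bp over all genes with RAD21 at an end. Without CTCF, the longest were 445 bp at Ndufa10, a membrane arm subunit with a nucleoside kinase fold, 444 bp at Ndufa8, an intermembrane space subunit, and 325 bp at Ndufb6. The factors Ndufaf2 and Ndufaf1 came next with 314 and 270 bp. Ndufs4 is the matrix arm subunit whose loss models Leigh syndrome in mice. At Ndufa4 and at Ndufs4 the only RAD21 peak within 1 kb of an end was 71 bp long. No RAD21 peak of the whole list was shorter, and second peaks of this length were called at Ndufa10 and Ndufv3. More than 1 RAD21 peak was called at 9 genes, 19.1% beside 8.11% of all genes, and 20.5% of the marked beside 12.7%. When only RAD21 peaks longer than the list's median were counted, 22 of 47 genes had one, 46.8% (33.3 to 60.8), beside 24.2% of all genes. The count therefore fell by a larger factor than 1.5 while its share remained above that of all genes. The share of all marked genes was not computed for these longer peaks.

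Transcription starts and strands came from a RefSeq promoter table of GRCm38.p6, the assembly mm10 names, which matched 40 of the 47 genes. Genes with no entry included Ndufa2, Ndufa4l2, Ndufaf6, Ndufb4c, Ndufb9 and Ndufs1. H3K4me3 lay within 1 kb of the start at 39 of 40 genes, 97.5% beside 59.0% of all genes in the table. RAD21 lay there at 30, 75.0% beside 33.5%, and CTCF at 14, 35.0% beside 21.0%. Of the 39 marked starts 76.9% had RAD21, beside 49.9% of all marked starts, and 35.9% had CTCF, beside 30.9%. H3K4me3 was longer on the transcribed side. The median cover was 708 bp in the 1 kb downstream and 299 bp in the 1 kb upstream, against 702 and 226 bp over all marked starts, and 29 of 39 genes had more downstream, 74.4% beside 81.7%. At least 200 bp upstream was found at 22, 56.4% beside 51.3%. RAD21 leaned the other way: of 35 RAD21 peaks near these starts, 23 had their midpoint upstream, 65.7%, against 59.6% over all marked starts. Of 16 CTCF peaks 11 were upstream, 68.8% against 62.9%.

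**Figure D3:**
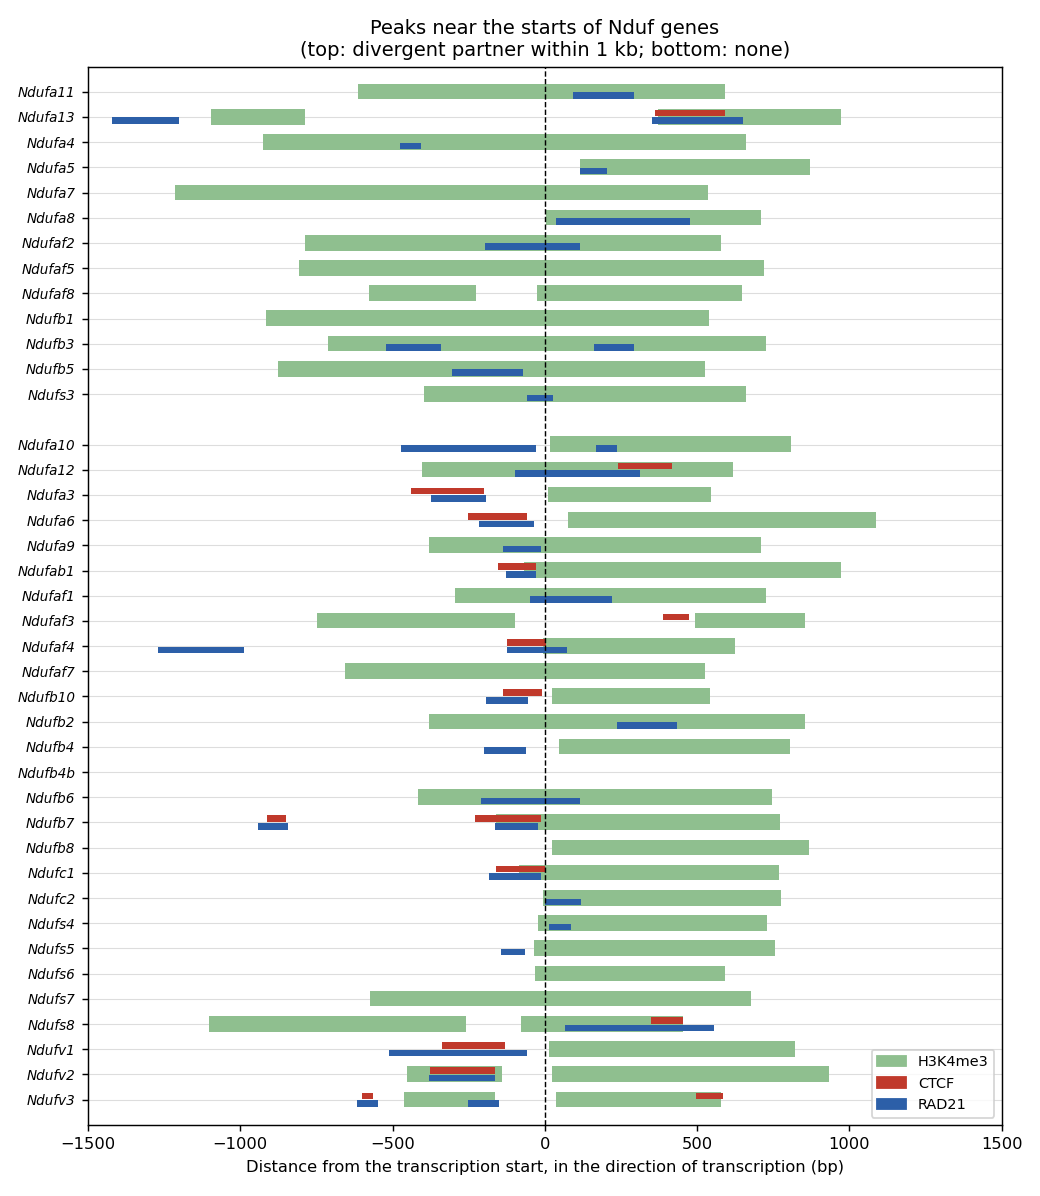
H3K4me3 (green), CTCF (red) and RAD21 (blue) peaks around the transcription starts of the 40 complex I genes with a start in the table, in bp from the start in the direction of transcription. The 13 genes at the top have a divergent partner gene, and for the 27 below none was found among genes with a start in the table. H3K4me3 reaches far to the left of the start in most of the upper rows, and CTCF lies in 1 of them.

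A divergent partner was a protein-coding gene on the other strand whose start lay within 1 kb upstream or overlapped by at most 250 bp. Partners were sought only among genes with a start in the table. A gene counted without a partner may therefore adjoin one that has no entry. A partner was found at 13 of 40 genes, 32.5% beside 8.52% of all genes and 13.5% of those marked at the start. This definition and the measures of cover were chosen after values had been seen. The pairs were Ndufa4 with Phf14, Ndufa5 with Asb15, Ndufa7 with Rps28, Ndufa8 with Morn5, Ndufa11 with Vmac, Ndufa13 with Tssk6, Ndufb1 with Cpsf2, Ndufb3 with Fam126b, Ndufb5 with Mrpl47, Ndufs3 with Kbtbd4, Ndufaf2 with Ercc8, Ndufaf5 with Esf1 and Ndufaf8 with Tepsin. Upstream H3K4me3 went with the partner. Its median was 713 bp at the 13 genes with one and 77 bp at the 26 marked genes without, as it was 690 and 125 bp over all marked genes split in the same way. Downstream cover was 648 and 739 bp. Ndufa5 and Ndufa8 had a partner but no H3K4me3 in the 1 kb upstream. The pairing of Ndufa13 rests on a start that lies inside its annotated gene.

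CTCF was called at few of the starts for which a partner was found. It lay within 1 kb of 1 of 13, Ndufa13, 7.69% (1.37 to 33.3), and of 13 of 26 marked starts without a partner (32.1 to 67.9%). Over all marked genes the shares were 30.3% and 31.0%. The intervals of the complex I groups overlap slightly, and the split was not tested. It also depends on which neighbours have a start in the table. Counted by gene ends, which need no such entry, the order was reversed. CTCF lay at 13 of 29 genes with a neighbouring end, 44.8%, and at 6 of 18 without, 33.3%. RAD21 lay at 9 of 13 starts with a partner, 69.2% (42.4 to 87.3), and at 21 of 26 without, 80.8% (62.1 to 91.5), against 56.8% and 48.9% over all marked genes. Of the RAD21 peaks, all 10 at divergent starts and 15 of 25 at the other starts overlapped H3K4me3, with shares of 87.6% and 71.9% over all marked genes.

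**Figure D4:**
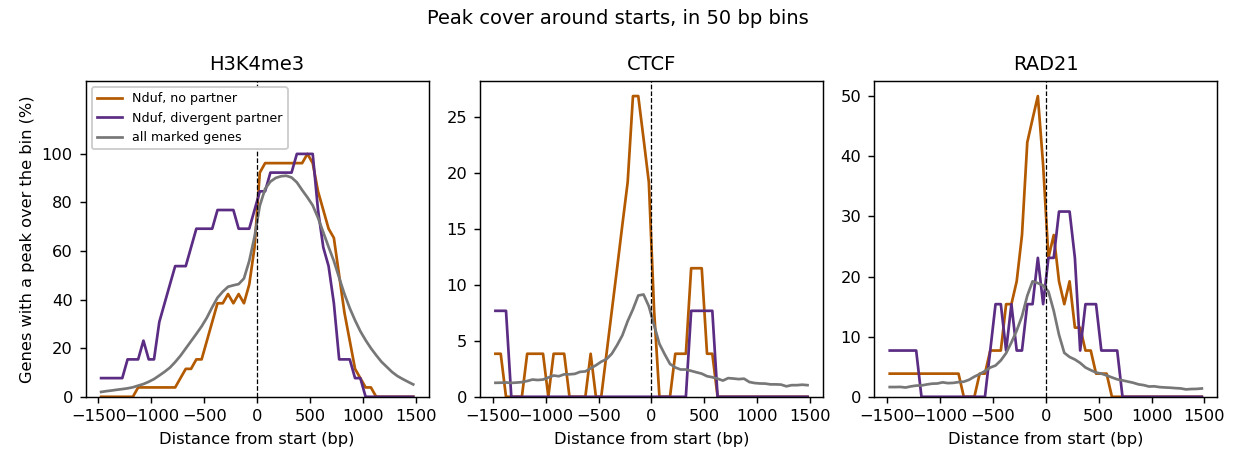
Percentage of genes with an H3K4me3, CTCF or RAD21 peak over each 50 bp bin, by distance in bp from the transcription start. Orange is 26 marked complex I genes with no divergent partner found, purple 13 with a partner, and grey all 9713 genes marked at the start. Vertical scales differ between panels. CTCF reached 7 and RAD21 13 of the 26 genes of the orange group just upstream of the start, where the grey lines stood at no more than 9.15% and 19.2%.

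At several single starts CTCF and RAD21 lay upstream of an H3K4me3 peak that began after the start. Positions are given from the start base, which is 0, and negative values are upstream. At Ndufv1 CTCF ran from -339 to -130 and H3K4me3 from 13 to 820. At Ndufa3 CTCF ran from -439 to -199 with H3K4me3 from 9 onwards, at Ndufa6 from -253 to -58 with H3K4me3 from 75, and at Ndufb10 from -136 to -9 with H3K4me3 from 22. No base was shared between the 2 at these 4 genes. At Ndufb7 CTCF ran from -229 to -12 and overlapped the front of the H3K4me3 peak, which began at -160. In all, 9 of the 16 CTCF peaks near marked starts overlapped H3K4me3, 56.2%, against 62.9% over all marked starts. RAD21 did so in 25 of 35, 71.4% against 74.3%.

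The promoter bases under these CTCF peaks are shown for the 4 genes with the longest CTCF peak among the 9 promoters that held both CTCF and RAD21. Each run spans 250 bases before to 50 from the start, 5′ to 3′ on the gene's strand, from RefSeq GRCm38.p6, with the bases inside the CTCF peak in capitals. Ndufa3 is chr7:3617123-3617422, plus strand, Ndufb7 chr8:83566508-83566807, plus strand, Ndufv2 chr17:66101510-66101809, minus strand, and Ndufv1 chr19:4012706-4013005, minus strand.
Ndufa3: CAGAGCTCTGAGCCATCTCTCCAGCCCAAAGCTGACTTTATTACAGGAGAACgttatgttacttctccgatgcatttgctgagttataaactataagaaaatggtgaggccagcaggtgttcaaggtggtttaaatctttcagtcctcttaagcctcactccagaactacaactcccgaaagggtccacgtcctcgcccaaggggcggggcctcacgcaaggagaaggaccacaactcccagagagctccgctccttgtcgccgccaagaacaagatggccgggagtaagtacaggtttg
Ndufb7: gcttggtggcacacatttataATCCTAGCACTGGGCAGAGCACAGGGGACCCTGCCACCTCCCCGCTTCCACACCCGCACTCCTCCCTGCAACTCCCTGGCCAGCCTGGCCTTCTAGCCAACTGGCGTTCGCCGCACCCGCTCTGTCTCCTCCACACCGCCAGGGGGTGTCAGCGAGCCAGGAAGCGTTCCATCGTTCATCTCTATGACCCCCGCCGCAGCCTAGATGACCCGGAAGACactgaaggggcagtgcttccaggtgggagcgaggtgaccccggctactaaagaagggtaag
Ndufv2: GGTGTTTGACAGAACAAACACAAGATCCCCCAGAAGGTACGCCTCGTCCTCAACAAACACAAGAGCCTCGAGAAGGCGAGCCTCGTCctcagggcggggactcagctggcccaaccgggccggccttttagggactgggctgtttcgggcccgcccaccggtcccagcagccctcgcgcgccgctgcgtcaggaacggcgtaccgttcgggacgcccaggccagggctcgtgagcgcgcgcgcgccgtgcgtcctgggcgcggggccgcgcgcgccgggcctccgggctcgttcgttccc
Ndufv1: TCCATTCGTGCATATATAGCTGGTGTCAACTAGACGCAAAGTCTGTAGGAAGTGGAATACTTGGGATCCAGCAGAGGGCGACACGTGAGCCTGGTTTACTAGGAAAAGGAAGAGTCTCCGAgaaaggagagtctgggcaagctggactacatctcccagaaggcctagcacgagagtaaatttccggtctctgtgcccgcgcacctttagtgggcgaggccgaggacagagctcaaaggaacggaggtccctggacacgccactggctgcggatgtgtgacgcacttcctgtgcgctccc
The capitals stop short of the start in all 4. They cover 52, 218, 87 and 121 of the 300 bases in this order, since the peaks of Ndufa3, Ndufv2 and Ndufv1 reach beyond the left edge.

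A CTCF core motif, searched on both strands as CCA, any 2 bases, AG, any 2 bases and GGC, was found in 4 of 40 complex I promoters, 10.0% beside 2.39% of all promoters in the table and 2.85% of marked ones. At Ndufa6, Ndufaf4 and Ndufv1 the match lay inside a CTCF peak and a RAD21 peak. At Ndufb6 it lay inside a RAD21 peak with no CTCF peak called. Among the 9 complex I promoters that overlapped CTCF the motif was in 3, 33.3%, against 9.62% of all promoters that overlapped CTCF. The 3 matches inside CTCF peaks are shown in capitals with 20 bases on each side, on the gene's strand. The windows are chr15:82354410-82354461 for Ndufa6, minus strand, chr4:24898007-24898058 for Ndufaf4, plus strand, and chr19:4012907-4012958 for Ndufv1, minus strand.
Ndufa6: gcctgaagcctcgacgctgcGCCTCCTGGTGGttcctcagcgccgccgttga
Ndufaf4: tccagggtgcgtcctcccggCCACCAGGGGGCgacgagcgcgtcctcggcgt
Ndufv1: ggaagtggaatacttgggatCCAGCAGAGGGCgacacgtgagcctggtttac
The match is on the gene's strand at Ndufaf4 and Ndufv1 and on the opposite strand at Ndufa6. It began at -150 in Ndufa6, -56 in Ndufaf4 and -183 in Ndufv1. A match is a description of the letters, and its absence from the other promoters says nothing about binding there.

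Motifs of known regulators of respiratory genes were searched in the same 300 base windows on both strands. The NRF1 motif, GCGCA and GCGC with any base between them, was in 9 promoters, 22.5% beside 6.88% of all and 11.0% of marked promoters: Ndufa5, Ndufa6, Ndufa8, Ndufa11, Ndufaf4, Ndufaf5, Ndufb4, Ndufs5 and Ndufs6. Ndufb4 held 3 matches, and also the only match to the ERR motif TNAAGGTCA, which is in 1.02% of all and 0.649% of marked promoters. The ETS motif CCGGAAGT was in the Ndufs3 promoter alone, 1 of 40 beside 5.44% of all and 8.59% of marked promoters. The YY1 motif AAGATGGCG was in 6, 15.0% beside 1.92% and 3.13%. No NRF1, ETS or YY1 match was found in 25 of the 40. Base composition differed little from that of marked promoters: median GC was 59.2% against 62.3%, and the ratio of observed to expected CpG 0.828 against 0.788.

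**Figure D5:**
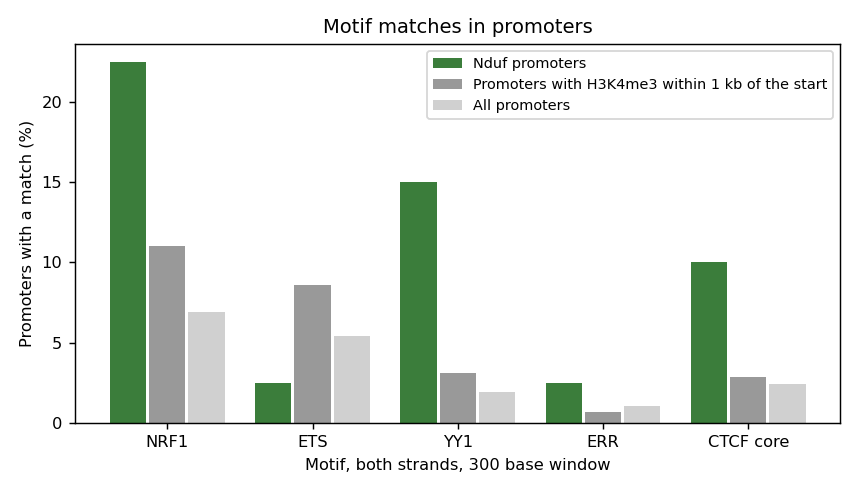
Percentage of promoters with at least 1 match to each motif, for the 40 complex I promoters (green), 9713 promoters marked by H3K4me3 within 1 kb of the start (dark grey) and all 16456 promoters in the table (light grey). The green bar is above both grey bars for NRF1, YY1, ERR and the CTCF core and below them for ETS; ETS and ERR rest on 1 complex I promoter each.

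All 6 YY1 matches lay on the gene's strand just after the start, between positions 10 and 43. Over all promoters 176 of 327 YY1 matches, 53.8%, were on the gene's strand at or after the start. The 6 matches are shown in capitals in windows of 30 bases on the gene's strand. The windows are chr6:126849096-126849125 for Ndufa9, minus strand, chr11:120098934-120098963 for Ndufaf8, plus strand, chr3:51408914-51408943 for Ndufc1, minus strand, chr13:114388045-114388074 for Ndufs4, minus strand, chr13:73328433-73328462 for Ndufs6, minus strand, and chr10:80249463-80249492 for Ndufs7, plus strand.
Ndufa9: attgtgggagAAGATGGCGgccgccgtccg
Ndufaf8: ggcagggcccAAGATGGCGgcgccctcgag
Ndufc1: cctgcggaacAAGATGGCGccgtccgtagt
Ndufs4: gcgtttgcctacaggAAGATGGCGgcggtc
Ndufs6: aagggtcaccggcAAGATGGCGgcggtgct
Ndufs7: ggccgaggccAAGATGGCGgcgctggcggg
In each window the letters ATG, which a start codon uses, lie within the motif, and whether translation begins there was not examined. The genes are from different parts of the complex: Ndufa9, Ndufs4, Ndufs6 and Ndufs7 in the matrix arm, Ndufc1 in the membrane arm and Ndufaf8 in assembly. Of these 6 genes only Ndufc1 had CTCF near its start.

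The promoters of the assembly factors with the longest H3K4me3 peaks among those in the table, Ndufaf5 and Ndufaf2, are shown for the opposite case, a start under broad H3K4me3 without CTCF. Ndufaf5 is chr2:140170396-140170695, plus strand, and Ndufaf2 chr13:108158576-108158875, minus strand. Capitals mark the NRF1 match, at positions 16 to 25 of Ndufaf5; Ndufaf2 has none.
Ndufaf5: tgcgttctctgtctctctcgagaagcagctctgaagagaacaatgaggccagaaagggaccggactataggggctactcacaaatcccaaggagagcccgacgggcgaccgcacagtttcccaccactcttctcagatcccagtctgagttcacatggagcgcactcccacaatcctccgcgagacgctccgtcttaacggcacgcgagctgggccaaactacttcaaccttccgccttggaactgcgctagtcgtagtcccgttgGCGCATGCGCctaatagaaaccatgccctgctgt
Ndufaf2: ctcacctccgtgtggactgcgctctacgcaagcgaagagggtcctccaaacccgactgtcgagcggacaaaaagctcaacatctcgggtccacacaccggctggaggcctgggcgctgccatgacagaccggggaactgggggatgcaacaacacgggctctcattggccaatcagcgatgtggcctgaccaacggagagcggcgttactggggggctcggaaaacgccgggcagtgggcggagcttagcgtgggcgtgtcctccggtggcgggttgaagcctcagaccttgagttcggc
H3K4me3 covered the whole window at both, from -806 to 721 at Ndufaf5 and from -786 to 579 at Ndufaf2. Ndufaf5 had no RAD21 peak within 1 kb of an end, and at Ndufaf2 RAD21 ran from -198 to 115, across the start. Both genes have a divergent partner.

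The H3K4me3 share was close to that in the rest of the respiratory chain. Of 74 autosomal genes of complexes II to V and of other complex I assembly factors, 69 were marked, 93.2% (85.1 to 97.1). By list these were 9 of 9 assembly genes, 8 of 8 for complex II, 15 of 15 for complex III, 22 of 24 for complex IV and 15 of 18 for complex V. The unmarked were Cox5a and Cox7a2 of complex IV, and Atp5g1, Atp5g3 and Atpaf2 of complex V. All but Atp5g1 had H3K4me3 farther inside the gene. CTCF lay at 30 of the 74, 40.5% (30.1 to 51.9), a share close to that of complex I. RAD21 lay at 40, 54.1% (42.8 to 64.9), below the 72.3% of complex I, with overlapping intervals and no test of the difference. Of 8 respiratory subunit isoforms used in particular tissues 5 were marked, a share near the 57.9% of all genes, Ndufa4l2 among them, with a median length of 380 bp, and Cox6a2, Cox7b2 and Cox8b were not.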

How the data were processed

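The deposited lists give genomic intervals alone, positions other than counts or scores, so peak length in bp was the only quantity. Per the submitters' processing notes the genome build was mm10, and MACS2, bedtools 2.30.0, Picard 2.27.4 and Bowtie2 2.4.5 were used. For these tools the roles, settings, thresholds and any control library were not stated.

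The 3 lists were set against RefSeq gene ends of GRCm38.p6 on the 19 autosomes. A peak counted if at least 1 bp lay within 1 kb of either end, and length was that of the longest such peak. Starts came from the promoter table; for the 2 genes with several (Ndufa5 and Ndufa7) the start nearest the annotated gene end was used. Python 3.11.15, numpy 2.4.6, pandas 2.3.3, scipy 1.17.1 and matplotlib 3.10.9 were used. On simulated data with planted peaks, 200 of 200 planted genes were recovered over 20661 genes, with 0 differences from a direct comparison of every gene with every peak. On the 3 real lists, the total number of genes with a peak showed 0 differences from bedtools 2.31.1.

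Shares carry Wilson intervals and their differences Newcombe intervals. Members, motifs and gene lists were chosen with earlier results of these data known. Named in full were the assembly factors, the members without H3K4me3 at an end, the 5 longest and 5 shortest H3K4me3 lengths, the members with CTCF or several H3K4me3 peaks, and the 5 longest RAD21 peaks without CTCF; of the other lists, unmarked genes. Divergent partners, cover on each side of the start, the place of YY1 matches and the short motif windows were added after values had been seen. The values of 1 complex I gene are not reported here, although it is in the counts. Coa1 was not found in the gene table.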

Additional observations from a re-analysis of the deposited data

How the results depend on the processing

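Of 74 alternatives over 8 results, 71 stayed within 1.5 times the count or within the interval of the stated value. RAD21 was the exception: peaks longer than the list's median left 22 genes, and the subunit minus factor difference in RAD21 share was -34.0 points with those peaks and 39.0 points at starts alone. The intervals of the subunit minus factor differences are wide, so staying within them is a loose criterion. In windows of 500 bp the RAD21 difference was 21.8 points, and it counted as within the interval of -3.21. Counts ranged from 35 to 46 genes for H3K4me3 and from 14 to 26 for CTCF, and the median H3K4me3 length from 912 to 1031 bp. The sign of the subunit minus factor difference was not stable for any kind of peak: -8.11 to 14.4 points for H3K4me3, -23.7 to 7.79 for CTCF and -137 to 7.5 bp for length. Adding the X-linked genes or leaving out Ndufa4 and Ndufa4l2 changed no result beyond these bounds. No paired analysis was possible because each antibody had 1 list and no result comes from a test, and for the same reason no replicate could be left out. Read depth is unknown, and 8 factors limit every comparison with them.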
